A study of Mus musculus with 8 samples.

Results

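Respiratory complex I is the NADH dehydrogenase of the inner mitochondrial membrane, and the genes described here are those whose symbol carries its prefix, Nduf. They were taken as every gene with a probe set whose only symbol in the platform annotation starts with Nduf, which gave 44 of the 18193 genes with a single-symbol probe set on the array. Each gene was represented by its brightest probe set over the 8 arrays. Of the 44, 43 passed the filter on low signals. Ndufb4 did not, with signals of 6 to 16 at its only single-symbol probe set. Probe sets that it shares with its copies were bright, at 4220 to 6354 and 2494 to 4166, but carry several symbols.

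The series holds 8 gastrocnemius samples from mice on a C57/Bl6J background, 4 labelled as wild type and called control below, and 4 labelled as glucocorticoid receptor knockouts and called GR_KO, with total RNA of each hybridised to 1 array. No treatment is labelled for either group, and the light cycle and housing were common to all mice. The design text writes the knockout as GR(i)skm-/-. The sources used here do not give the driver of the deletion, its timing, or the age and sex of the mice. The samples were whole muscle, so a lower signal can mean fewer cells of a type or less RNA per cell, and these cannot be told apart. Since the labels do not state that each sample is a different mouse, p-values reflect only how these 8 samples vary, and that variation may be technical.

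Complex I oxidises NADH made by the citric acid cycle and fatty acid oxidation, passes the electrons through a flavin and a chain of iron-sulfur clusters to ubiquinone, and pumps protons. Its matrix arm holds the redox groups and its membrane arm the proton channels. The catalytic subunits of the membrane arm are encoded by mitochondrial DNA, while all genes below are nuclear. Many accessory subunits surround the core, and assembly factors build the enzyme without staying in it. Oxidative muscle fibres are rich in the complex.

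The glucocorticoid receptor transcript itself was lower on the GR_KO arrays. One of its probe sets gave signals of 377, 307, 307 and 352 in control and 134, 79, 76 and 94 in GR_KO muscle (limma over all probe sets above the filter, adjusted p = 0.0164). Another gave 179, 189, 114 and 100 in control and 43, 39, 35 and 29 in GR_KO muscle (same fit, limma adjusted p = 0.0234). The brightest Nr3c1 probe set gave 213 to 513 and 105 to 222, which overlapped (limma adjusted p = 0.923). Dimmer ones, at 13 to 55 and 51 to 137 over the 8 arrays, had limma adjusted p of 0.929 and 0.923. The dimmest, at 3 to 22, was below the filter. Signals of myofibre genes were high on every array, with Acta1 between 9925 and 28292 and Ckm between 9274 and 26736. Control replicate 4 stood apart: its 9 hybridisation spike-in probe sets were 3.01-fold the median of the other arrays, the summed signal of the 10 fast-fibre markers was 257971 against 103537 to 165714 elsewhere, and that of the 8 slow-fibre markers was 7233 against 12262 to 24414. GR_KO replicate 3 had the second highest spike-in signal, 1.51-fold the median of the others. The 8 endothelial markers summed to 3077 to 3469 in control and 3647 to 4978 in GR_KO muscle. The 7 fibroblast and matrix markers summed to 6441 to 12216 and 10869 to 15568. Gene by gene, 7 of the 8 and 5 of the 7 were higher in GR_KO muscle, and 0 had a limma adjusted p under 0.05. Medians over the endothelial genes of log2 signal minus each gene's mean overlapped, at -0.33 to -0.078 in control and -0.14 to 0.46 in GR_KO muscle. Of the 4 adipocyte markers with a probe set, Adipoq alone was above the filter. The part of these differences in the values below was not tested.

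No Nduf gene differed between the groups past the threshold. In limma with Benjamini-Hochberg adjustment over 11062 genes, 0 of the 43 members had an adjusted p under 0.05, where 6 of all genes, or 0.0542%, did, and these 6 were lower. The smallest adjusted p among the members was 0.850. At an unadjusted p under 0.05 there was 1 member, or 2.33%, against 4.63% of all genes. In 1 member, the same one, the GR_KO and control signals did not overlap, against 2.58% of all genes, of which 1.29% were lower and 1.28% higher.

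Log2 fold changes, given throughout as GR_KO minus control, ran from -0.44 for Ndufs4 to 0.31 for Ndufaf8, and 29 members were above 0 and 14 below. The median was 0.059, against 0.013 over all genes tested, a difference of 0.046 that turned to -0.021 under quantile normalization. The member median was 0.15 without GR_KO replicate 1, 0.10 without control replicate 2, 0.033 without control replicate 4 and 0.015 without GR_KO replicate 3. The 95% intervals of 42 members included 0, and those of 33 lay wholly within a 1.5-fold difference in either direction. The lowest bound of any interval was -0.71, for Ndufs4, and the highest 0.68, for Ndufa7.

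**Figure D1:**
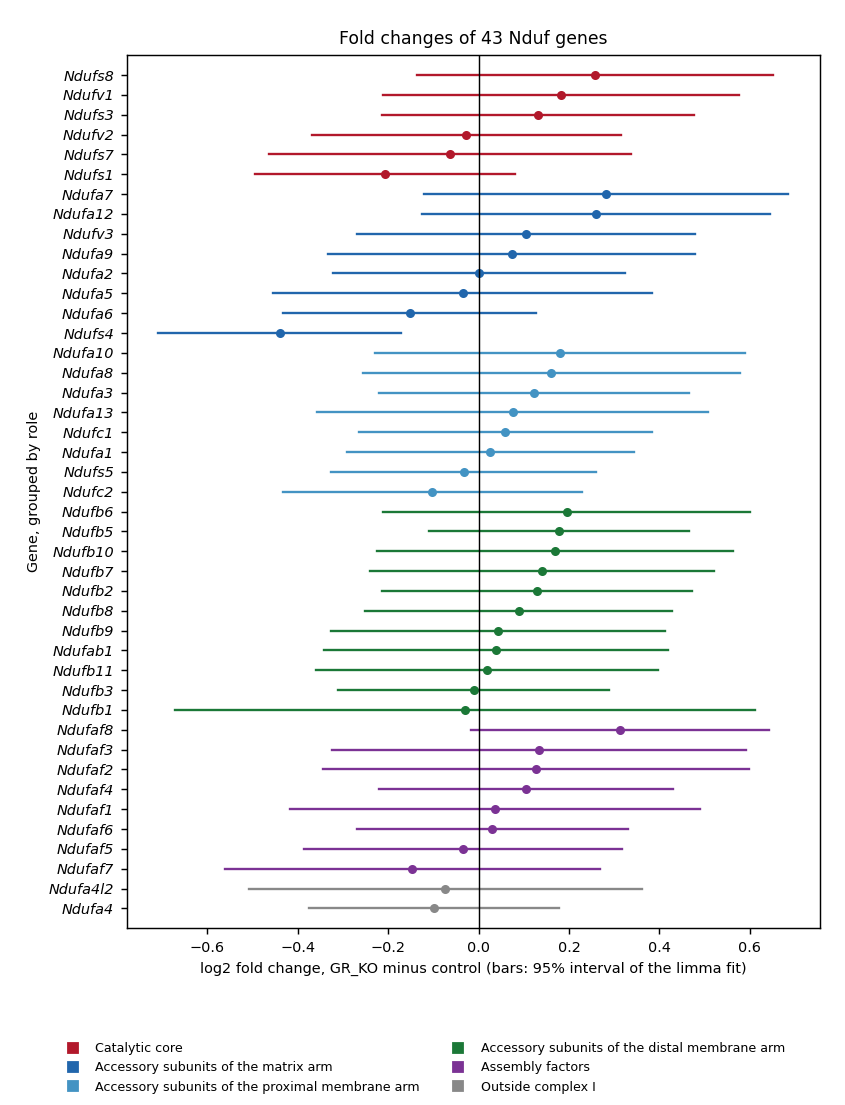
Log2 fold change of each of the 43 Nduf genes tested (horizontal axis, GR_KO minus control; points), with its 95% interval from limma (bars), grouped and coloured by role. All intervals but that of Ndufs4, from -0.71 to -0.17, cross 0.

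Ndufs4 had the lowest fold change and the smallest p of the group. It encodes an accessory subunit of the matrix arm that lies by the electron-input module, and mice without it develop a disease like human Leigh syndrome. Its brightest probe set read 1104, 1121, 1231 and 1161 on the control arrays and 920, 770, 796 and 926 on the GR_KO arrays. All 4 GR_KO signals lay below all 4 controls, with the highest GR_KO signal, 926, under the lowest control signal, 1104. The means were 1154 ± 56.5 and 853 ± 81.6 (SD, n = 4), a 1.36-fold difference (log2 fold change -0.44 ± 0.12 SE, 95% interval -0.71 to -0.17). In limma this had an unadjusted p of 0.00408, a rank of 53 by p among the 11062 genes, and an adjusted p of 0.850, so it did not pass. With each array centred on its median the groups overlapped and the unadjusted p was 0.0764.

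Other probe sets of Ndufs4 gave a mixed picture. At a second one the control signals were 193, 165, 210 and 152 and the GR_KO signals 134, 125, 115 and 161. The groups overlapped there through control replicate 4 and GR_KO replicate 4, and the log2 fold change was -0.43 ± 0.17 (SE; limma over all probe sets above the filter, unadjusted p = 0.0278, adjusted p = 0.923). At the third the control signals were 224, 192, 191 and 210 and the GR_KO signals 166, 201, 278 and 257, so that 2 GR_KO arrays were above every control and 1 below. The log2 fold change there was 0.12, and the fourth probe set was below the filter with signals of 1 to 21. With all probe sets of each gene averaged in log2, the log2 fold change of Ndufs4 was -0.21 (limma, unadjusted p = 0.413). That average includes the probe set below the filter, whose dim signals add spread, and an average without it was not fitted. With each array left out in turn the log2 fold change of Ndufs4 stayed between -0.48 and -0.39 at the brightest probe set.

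**Figure D2:**
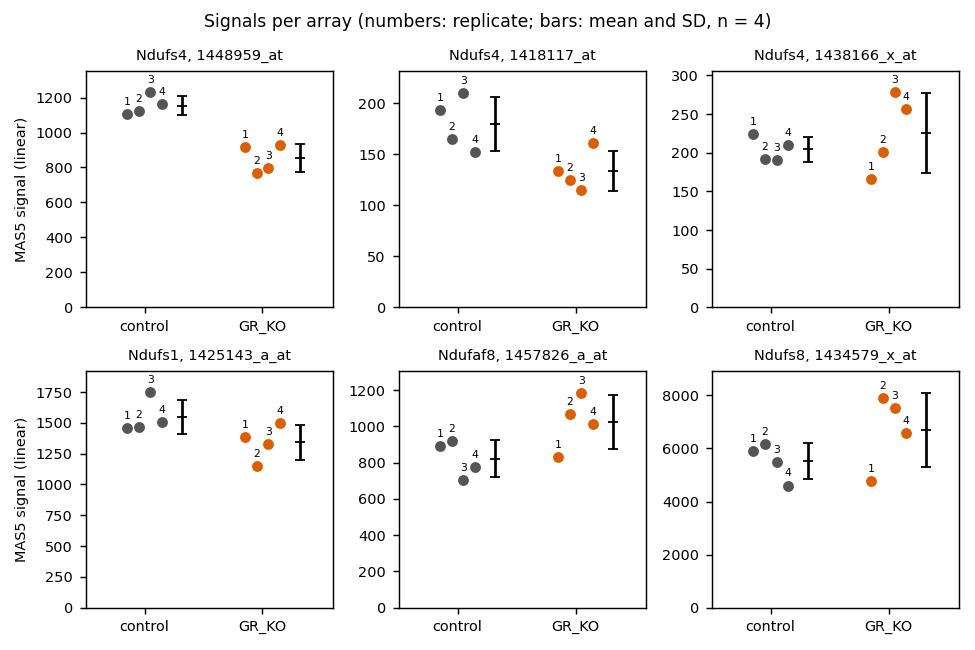
MAS5 signal (vertical axis, linear, from 0) on each of the 4 control and 4 GR_KO arrays for 3 probe sets of Ndufs4 and the brightest probe sets of Ndufs1, Ndufaf8 and Ndufs8; numbers are replicates, and bars show the mean and SD of 4 arrays. Only the first panel, Ndufs4 at its brightest probe set, has groups that do not overlap.

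Among the members with the highest fold change, Ndufaf8 came first. It encodes an assembly factor that in human cells keeps the assembly factor NDUFAF5 stable. Its signals were 893, 920, 702 and 775 on the control and 831, 1069, 1185 and 1011 on the GR_KO arrays. Of the GR_KO arrays 3 lay above all controls, and GR_KO replicate 1 lay among them. The means were 823 ± 102 and 1024 ± 148 (SD, n = 4; log2 fold change 0.31 ± 0.15 SE, 95% interval -0.016 to 0.64; limma adjusted p = 0.880). Its second probe set had a log2 fold change of 0.18.

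The windows around the transcription starts of the genes at both ends of this range are shown because they share a motif, and that of Ndufa6, next lowest after Ndufs4 among the accessory subunits of the matrix arm, because it holds another. RefSeq windows (GRCm38.p6) of 250 bases before to 50 bases after a start were matched by symbol for 39 of the 44 members, in 41 windows. Letters of 5 factors were searched on both strands. AAGATGGC, a core of the YY1 site, was in 7 of the 41 member windows (17.1%) and in 2.75% of all 32851 windows. The core of the site of NRF1, a regulator of respiratory chain genes, searched as GCGCA and GCGC with any 1 base between, was in 8 (19.5%) and in 4.60% of all windows. The ETS letters CCGGAAGT were in 1 member window (2.44%) and 3.89% of all. The letters TCAAGGTCA of estrogen-related receptors and the half-sites GNACA and TGTNC of glucocorticoid response elements, with any 3 bases between, were in 0 member windows and in 0.423% and 0.475% of all. A match is a run of letters, not a shown site, and windows of a gene can overlap. In the windows below, 5′ to 3′ on the strand of the gene, the capitals mark the YY1 letters for Ndufs4 (chr13:114388045-114388344, minus strand) and Ndufaf8 (chr11:120098684-120098983, plus strand), which begin 35 and 10 bases after the start. They mark the NRF1 letters for Ndufa6 (chr15:82354242-82354541, minus strand), read on the opposite strand, which begin 23 bases after it.
Ndufs4: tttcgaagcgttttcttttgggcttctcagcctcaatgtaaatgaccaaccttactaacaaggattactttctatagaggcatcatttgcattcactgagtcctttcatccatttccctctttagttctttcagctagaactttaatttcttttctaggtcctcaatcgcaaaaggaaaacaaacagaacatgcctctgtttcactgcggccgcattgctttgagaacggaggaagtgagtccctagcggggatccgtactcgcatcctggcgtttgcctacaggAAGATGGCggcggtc
Ndufaf8: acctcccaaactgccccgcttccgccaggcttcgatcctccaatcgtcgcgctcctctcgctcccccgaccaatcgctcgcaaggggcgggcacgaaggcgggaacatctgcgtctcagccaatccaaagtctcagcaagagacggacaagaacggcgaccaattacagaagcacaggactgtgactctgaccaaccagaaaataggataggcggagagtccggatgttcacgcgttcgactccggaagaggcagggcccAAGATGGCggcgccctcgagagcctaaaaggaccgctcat
Ndufa6: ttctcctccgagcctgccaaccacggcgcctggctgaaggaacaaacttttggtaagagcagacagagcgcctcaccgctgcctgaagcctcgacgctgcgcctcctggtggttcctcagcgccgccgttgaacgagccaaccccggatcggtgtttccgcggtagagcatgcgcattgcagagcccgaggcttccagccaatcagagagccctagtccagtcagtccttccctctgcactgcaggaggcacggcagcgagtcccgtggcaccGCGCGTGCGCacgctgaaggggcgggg

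The catalytic core of the matrix arm held 6 members, of which 3 were above 0 and 3 below, with a median log2 fold change of 0.052. Ndufs1, which carries iron-sulfur clusters of the electron-input module, had the lowest value of the core. Its signals were 1460, 1470, 1750 and 1505 in control and 1386, 1153, 1329 and 1497 in GR_KO muscle. The 3 lowest of the 8 were GR_KO arrays, but GR_KO replicate 4 lay above 2 controls. The log2 fold change was -0.21 ± 0.13 (SE, n = 4; limma adjusted p = 0.880).

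Ndufs8, which holds iron-sulfur clusters on the way to ubiquinone, had the highest value of the core. Its signals were 5896, 6155, 5478 and 4604 in control and 4772, 7892, 7528 and 6587 in GR_KO muscle. GR_KO replicates 2, 3 and 4 were above every control, while GR_KO replicate 1 was below all controls but replicate 4. The log2 fold change was 0.26 ± 0.18 (SE, limma adjusted p = 0.880), and the other 5 Ndufs8 probe sets gave 0.11 to 0.27.

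Ndufv1, which binds NADH and the flavin, read 3849, 4406, 3848 and 3020 in control and 3114, 4612, 4991 and 4561 in GR_KO muscle (log2 fold change 0.18 ± 0.18 SE). Ndufs3, of the ubiquinone-reducing module, read 4107, 4774, 4590 and 3842 in control and 3628, 4935, 5420 and 5140 in GR_KO muscle (0.13 ± 0.16 SE). Both showed the layout of Ndufs8, with GR_KO replicates 2 to 4 above every control and GR_KO replicate 1 near the bottom. Ndufv2, an iron-sulfur subunit beside Ndufv1, read 5070, 4794, 4196 and 6149 in control and 4432, 4814, 5869 and 4643 in GR_KO muscle (-0.027 ± 0.16 SE). Ndufs7, the iron-sulfur subunit next to ubiquinone, read 6151, 6187, 5771 and 7679 in control and 4461, 6842, 7738 and 6000 in GR_KO muscle (-0.063 ± 0.18 SE). In these last 2 genes control replicate 4 had the highest control signal, and their sign turned without it, to 0.072 for Ndufv2 and 0.024 for Ndufs7.

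The accessory subunits of the matrix arm, 8 members with Ndufs4, had a median of 0.037, with 5 above 0 and 3 below. Ndufa7 and Ndufa12, both bound to the electron-input end, were the highest. Ndufa7 read 3956, 4658, 4310 and 2959 in control and 3599, 5076, 5357 and 5248 in GR_KO muscle (log2 fold change 0.28 ± 0.18 SE; limma adjusted p = 0.880). Its other 4 probe sets, at 0.11 to 0.29, gave the same sign. Ndufa12 read 7130, 7450, 6468 and 9257 in control and 6969, 10096, 10781 and 8602 in GR_KO muscle (0.26 ± 0.17 SE; limma adjusted p = 0.880). Control replicate 4 was the lowest of the 8 arrays for Ndufa7 and the highest control for Ndufa12. Ndufa6, which interacts with the mitochondrial acyl carrier protein, read 4129, 3832, 3838 and 4349 in control and 3597, 3553, 4142 and 3268 in GR_KO muscle (-0.15 ± 0.13 SE). Of the GR_KO arrays 3 lay below every control and GR_KO replicate 3 lay above 3 of them. The other members here were Ndufv3 (0.10), Ndufa9 (0.073), Ndufa2 (0.00055) and Ndufa5 (-0.036).

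The accessory subunits of the proximal membrane arm, next to the matrix arm, were 8 members with a median of 0.068, of which 6 were above 0. They ran from -0.10 for Ndufc2 to 0.18 for Ndufa10, and the p-values of all 8 were above 0.05. Ndufc2 read 4021, 3571, 3443 and 4719 in control and 3391, 3232, 4322 and 3708 in GR_KO muscle, and its groups overlapped over most of their range. Ndufa3 read 6075, 6313, 6119 and 5657 in control and 4929, 7229, 7449 and 7020 in GR_KO muscle (0.12 ± 0.16 SE). The 4 controls lay close together, with 3 GR_KO arrays above them and GR_KO replicate 1 below. Ndufa13, also known as GRIM-19, had 0.076, and the rest, Ndufa8, Ndufc1, Ndufa1 and Ndufs5, had 0.16, 0.059, 0.026 and -0.033.

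The distal membrane arm had 11 members tested, of which 9 were above 0, with a median of 0.089 and a range from -0.030 for Ndufb1 to 0.19 for Ndufb6. Ndufb6 read 2610, 2967, 2552 and 1725 in control and 2415, 2564, 3419 and 2762 in GR_KO muscle (0.19 ± 0.18 SE). Without control replicate 4, the lowest of the 8, its log2 fold change was 0.033. Ndufb9 and Ndufb11, accessory subunits named for the high signals of their probe sets, read 7933 to 11050 and 6631 to 9064 in control and 7449 to 11154 and 5888 to 9409 in GR_KO muscle. Their log2 fold changes were 0.043 and 0.019, and the range of the GR_KO signals enclosed that of the controls in both. Ndufab1, the mitochondrial acyl carrier protein, which also serves lipoic acid synthesis, read 2396, 2791, 3039 and 1911 in control and 2155, 2472, 2628 and 3087 in GR_KO muscle (0.039 ± 0.17 SE). Its lowest signal was that of control replicate 4, and without that array the value was -0.090. The others were Ndufb5, Ndufb10, Ndufb7, Ndufb2 and Ndufb8, with 0.18, 0.17, 0.14, 0.13 and 0.089, and Ndufb3 with -0.011.

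Assembly factors with the prefix numbered 8, with a median of 0.070 and 6 above 0. Ndufaf1, which works with Ecsit and Acad9 on the membrane arm, read 238 to 461 in control and 318 to 442 in GR_KO muscle. Ndufaf3 and Ndufaf4, which act on the ubiquinone-reducing module, read 177 to 314 and 500 to 677 in control and 237 to 349 and 543 to 754 in GR_KO muscle. All 3 overlapped, with log2 fold changes of 0.036, 0.13 and 0.10. Ndufaf2, a relative of Ndufa12 that helps dock the electron-input module, had 0.13, and Ndufaf6 had 0.031. Ndufaf5, which in human cells hydroxylates the core subunit NDUFS7, had -0.034. Ndufaf7, a methyltransferase, read 68, 95, 65 and 77 in control and 85, 62, 61 and 67 in GR_KO muscle, with control replicate 2 the highest of the 8 (-0.15 ± 0.19 SE). On control replicate 4, 5 of the 8 assembly factors had their lowest signal of the 8 arrays.

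Both members that carry the prefix without being classic subunits were slightly below 0. Ndufa4, now counted as a subunit of cytochrome c oxidase, read 4942, 4916, 5072 and 5330 in control and 4123, 4696, 5132 and 5027 in GR_KO muscle (-0.099 ± 0.13 SE). Its paralog Ndufa4l2, a hypoxia-induced gene, read 135, 173, 180 and 117 in control and 148, 105, 171 and 151 in GR_KO muscle (-0.073 ± 0.20 SE). The groups overlapped in each, and the sign of Ndufa4l2 turned without GR_KO replicate 2 (0.070) or control replicate 3 (0.018). Probe sets that the annotation assigns to several symbols were left out of the members by the rule. Those shared by Ndufb4 with its copies had log2 fold changes of 0.15 and 0.16, that of Ndufs6 and Ndufs6b 0.044, and the brighter one of Ndufa11 and Ndufa11b 0.16, with overlapping groups in all of them.

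Many of the members, though not the assembly factors, shared a pattern across single arrays, within groups rather than between them. GR_KO replicate 3 had the highest signal of the 8 arrays for 18 of the 43 members (41.9%, against 13.9% of all genes tested). GR_KO replicate 1 had the lowest for 13 (30.2%, against 10.2%), and control replicate 4 the lowest for 15 (34.9%, against 27.9%) and the highest for 6 (14.0%, against 26.4%). The median over the members of the log2 signal centred on the mean of each gene was -0.21 on GR_KO replicate 1 and 0.24 on GR_KO replicate 3. On the other GR_KO arrays it was 0.078 and 0.061, and on the controls it lay between -0.095 and 0.031. The range among the GR_KO arrays thus enclosed that of the controls. The 8 assembly factors differed, with medians of -0.12 on GR_KO replicate 1, -0.012 on GR_KO replicate 3 and -0.32 on control replicate 4. For the 2 members outside complex I the lowest median was -0.26, on GR_KO replicate 2. The spike-in signals of GR_KO replicates 1 and 3 were 591 and 1088, and over all genes tested the same medians were 0.014 and 0.026. The part of the spike-in difference in this pattern was not tested.

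**Figure D3:**
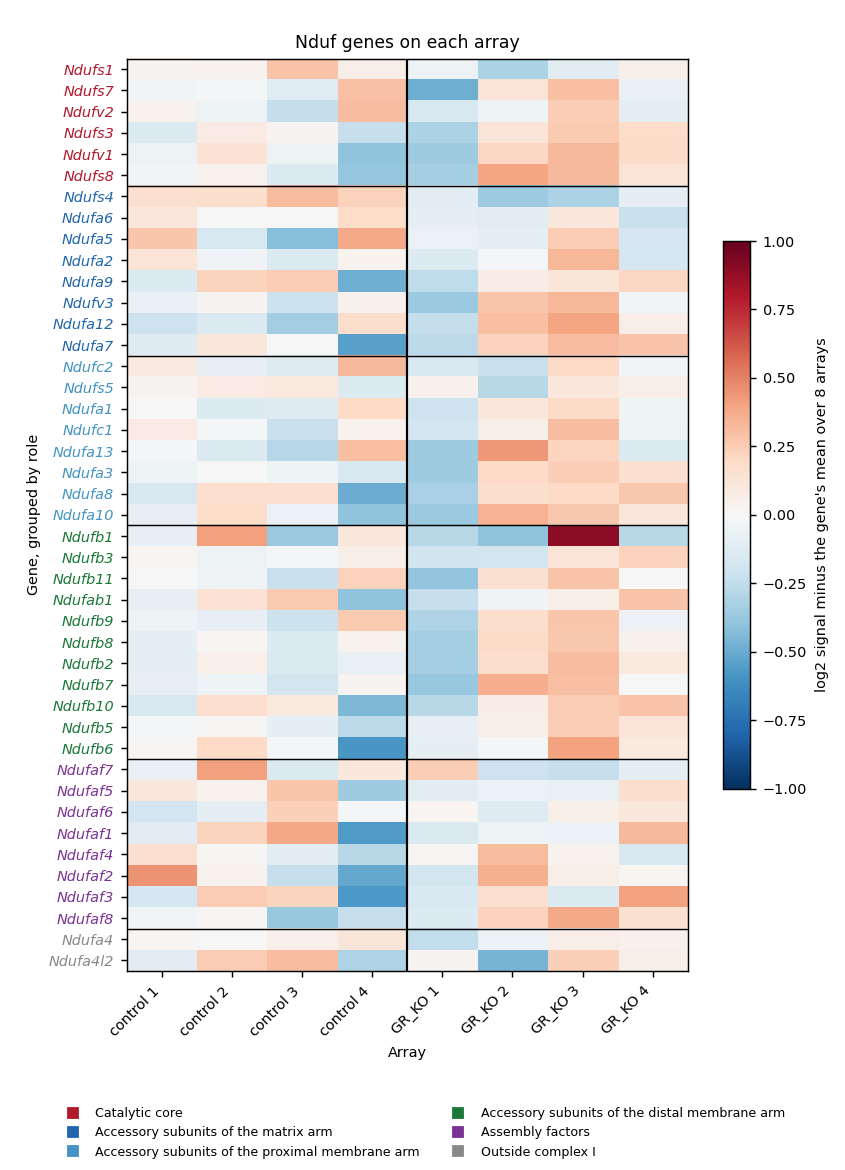
Log2 signal of each Nduf gene minus its mean over the 8 arrays (colour, scale ending at 1 in either direction), with arrays in columns, genes in rows, role by label colour, and a vertical line between control and GR_KO. GR_KO replicate 1 is mostly blue, GR_KO replicate 3 mostly red (medians -0.21 and 0.24), control replicate 4 is split, and the Ndufs4 row alone has 1 sign throughout each group.

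The call did not rest on the array that stood apart. Without control replicate 4, 0 members passed in limma and 1 (2.33%) had an unadjusted p under 0.05, against 4.57% of all genes in that fit. Without GR_KO replicate 1, the low array, 7 members (16.3%) had an unadjusted p under 0.05, against 10.8% of all genes in that fit, and 0 passed after adjustment (smallest adjusted p = 0.419). In that fit the groups did not overlap in 11 members (25.6%), against 12.4% of all genes. The 7 were Ndufa3, Ndufa7, Ndufa12, Ndufaf8, Ndufs8 and Ndufv1 above 0, and Ndufs4 below. In the other fits with 1 array left out, Ndufs4 had such a p in each, joined by Ndufaf8 without control replicate 2. Members with such a p were 2.33% or 4.65% of those tested in these fits, against 2.64% to 7.30% of all genes.

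Genes listed for complexes II to V, the other enzymes of the respiratory chain with ATP synthase, had medians close to these on every array. The list was made by symbol and also holds Cycs (cytochrome c) and Cox7a2l, so not every gene in it encodes a subunit. Of 46 tested, 32 were above 0 and 14 below, with a median log2 fold change of 0.042, and 0 passed the threshold. Their centred median was -0.27 on GR_KO replicate 1 and 0.20 on GR_KO replicate 3. Of the 46, 1 gene had an unadjusted p under 0.05 in limma, where 4.63% of all genes did. Its groups also did not overlap, as in 2.58% of all genes. This was Sdha, the flavoprotein of complex II, which read 3783, 3801, 4246 and 3866 in control and 2806, 2982, 3658 and 3418 in GR_KO muscle (log2 fold change -0.29 ± 0.13 SE; limma adjusted p = 0.880). Sdha was picked out after its values were seen. The difference between the complexes was not tested.

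**Figure D4:**
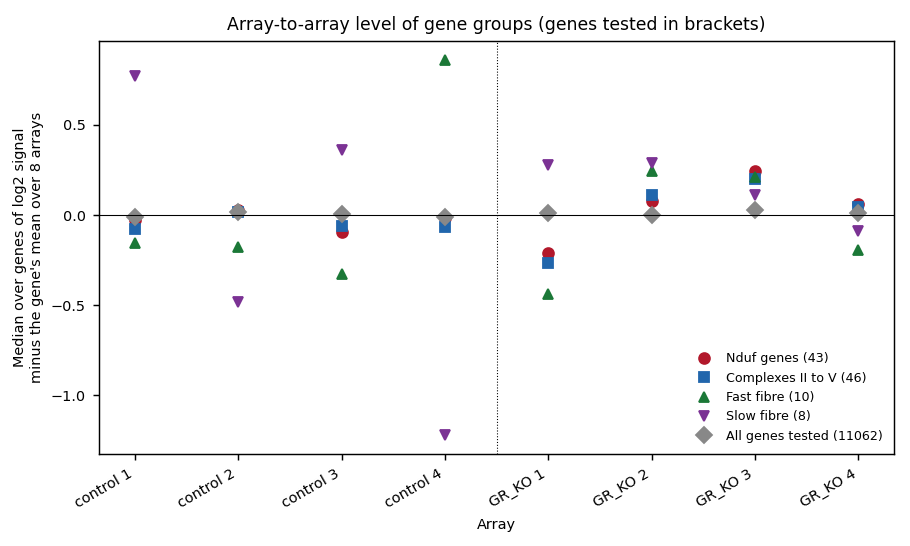
Median over genes of the log2 signal minus the mean of each gene over the 8 arrays (vertical axis), for each array, for 43 Nduf genes, 46 genes of complexes II to V, 10 fast-fibre and 8 slow-fibre markers and all 11062 genes tested. Nduf genes and complexes II to V lie close together on every array, lowest on GR_KO replicate 1 (-0.21 and -0.27), while the fibre markers part widely on control replicate 4 (0.86 and -1.22).

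Fast-fibre markers lay on the same side of 0 as the members on GR_KO replicates 1 to 3 and far from them on control replicate 4. Their centred median was -0.44, 0.25, 0.21 and -0.19 on GR_KO replicates 1 to 4, where that of the members was -0.21, 0.078, 0.24 and 0.061. The 9 skeletal myofibre markers were at -0.43, 0.23, 0.19 and -0.10 there. The part of these markers in the pattern over the arrays was not tested. Slow-fibre markers had a centred median of 0.77 on control replicate 1 and -1.22 on control replicate 4, where that of the members was -0.029 and -0.016. Fast-fibre and myofibre markers were at 0.86 and 0.75 on control replicate 4. As log2 fold changes, 7 of 8 slow-fibre markers were above 0 (median 0.33) and 10 of 10 fast-fibre markers below (median -0.099). In neither list did any pass the threshold. These fold changes include control replicate 4, and how far they rest on that array was not tested. On control replicates 1 to 3 the centred median of the fast-fibre markers was -0.16, -0.18 and -0.32. That of the slow-fibre markers was 0.77, -0.48 and 0.36 there, and 0.28, 0.29, 0.11 and -0.089 on GR_KO replicates 1 to 4.

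Complex I assembly factors without the prefix spread more widely. Of 12 listed, 11 were tested, with 6 above 0 and 5 below and a median of 0.063, and 0 passed. Of these, 4 had an unadjusted p under 0.05 in limma, 3 lower and 1 higher, against 2.26% and 2.37% of all genes. Tmem126b, a membrane-arm assembly factor, was dim, at 44, 32, 37 and 49 in control and 21, 37, 20 and 16 in GR_KO muscle (log2 fold change -0.84 ± 0.30 SE). Tmem70, known mainly for the assembly of ATP synthase, read 367, 200, 359 and 423 in control and 363, 160, 129 and 210 in GR_KO muscle (-0.71 ± 0.32 SE), and Tmem242 had -0.48 ± 0.21. Lyrm2 was the higher one (0.47 ± 0.21 SE). The groups overlapped in all 4, and their adjusted p-values in limma were 0.880. These genes were named for their small p-values.

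Genes of mitochondrial content and its regulators numbered 10, of which 7 were above 0 (median 0.12) and 0 passed the threshold. Ppargc1b, a coactivator of mitochondrial genes, had the highest value and the only unadjusted p under 0.05, where 4.63% of all genes had such a p. It read 756, 970, 748 and 668 in control and 870, 1272, 982 and 963 in GR_KO muscle (0.38 ± 0.16 SE; limma adjusted p = 0.880), with GR_KO replicates 1 and 4 below control replicate 2.

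Several members had more than 1 probe set, which allowed the readings of a gene to be compared. Of the 88 single-symbol probe sets of the members 83 were above the filter, and 21 members had more than 1 of these. The log2 fold changes of a member's probe sets differed by a median of 0.16. They had both signs in 9 members, and differed by over 0.5 as well in Ndufa12, Ndufa3, Ndufab1 and Ndufs4. In Ndufa12 the odd one had signals of 17 to 66 and a log2 fold change of -0.66, against 0.22 to 0.30 at its 3 bright probe sets. In Ndufa3 it had signals of 15 to 33 (-0.47), against 0.11 and 0.12. In Ndufab1 a probe set with signals of 11 to 65 had -0.74, and another with signals of 362 to 895 had 0.40. Of these 4 members, Ndufs4 was the one whose 3 probe sets above the filter all had signals of at least 115.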

How the data were processed

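Total RNA of 8 gastrocnemius samples was hybridised to 1 single-colour Affymetrix array each. The deposited values are MAS5 signal intensity per probe set on a linear scale, per the submitters' processing notes, while the sources used here give neither its version nor its scaling target. The trimmed mean was 99.96 on every array, leaving out 2% at each end, so the values were already scaled and no further normalization was applied. Median signals still differed, from 18 on GR_KO replicate 4 to 26 on control replicate 4. MAS5 subtracts mismatch signal, which makes dim values imprecise. Precision is limited by having 4 arrays a group.

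Of 45101 probe sets, 64 controls were left out. Of the rest, 34945 had 1 gene symbol in the platform annotation, 932 several and 9160 none. Of the single-symbol probe sets, 34741 matched RefSeq by gene ID. Each of 6388 values at 0 was replaced by the lowest positive signal on that array. Each gene took the probe set with the highest mean log2 signal, and genes above the median of all probe sets (signal 19.4) were tested. Log2 signals were compared in limma 3.58.1 (R 4.3.3; lmFit and eBayes with trend), with Benjamini-Hochberg adjustment over 11062 genes at 0.05. The fit was tried only on simulated data with independent noise and added log2 differences larger than those of any member. That cannot show how the fit handles differences of the members' size. Figures were drawn with matplotlib 3.10.9 in Python 3.11.15. No pair of arrays held identical values.

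The genes named singly are the members with the 5 highest and 5 lowest fold changes and the 5 smallest p-values, the catalytic core, Ndufa4 and Ndufa4l2, the 3 members with the highest signals, members whose probe sets differ in sign and by over 0.5, the assembly factors, and the member below the filter. Other members, with Nr3c1, are given by value or count. The members and lists were chosen with earlier results of these data known. Alternatives covered scaling, pseudocounts of 8 and 16, filters, probe set summaries, the variance model, array weights, the threshold, the replicate number as a block and each array left out. The spike-in signal as a covariate was added after seeing the data. Nothing in the labels says that same-numbered samples of the groups are paired, so the numbers were not taken to pair them. The deviations of same-numbered samples from their group means had correlations of -0.19, 0.18, 0.11 and -0.39. Such correlations cannot show whether samples were paired.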

Additional observations from a re-analysis of the deposited data

Results flagged for a closer look

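In 6 of 86 sets of 4 arrays (6.98%, where chance flags about 1 in 20, or 5%), 1 array lay far from the other 3. Its gap to its nearest neighbour in log2 signal, as a share of the group's log2 range, was above Dixon's 95% critical value. Each share is given below with the linear signals. GR_KO replicate 1 was the low array for Ndufa3 (0.856; 4929 against 7020 to 7449), Ndufa7 (0.865; 3599 against 5076 to 5357) and Ndufa8 (0.848; 2905 against 4109 to 4373). GR_KO replicate 2 was low for Ndufs5 (0.849; 1934 against 2418 to 2516). GR_KO replicate 3 was high for Ndufb1 (0.906; 140 against 57 to 62). Control replicate 3 was high for Ndufs1 (0.832; 1750 against 1460 to 1505).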

How the results depend on the processing

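No member passed the threshold in limma under any of 22 other settings. There the count at an unadjusted p under 0.05 was 0 to 7 (0% to 16.3%, where all genes had 2.41% to 10.8%). Under the reported setting it was 1 (2.33%, against 4.63% of all genes). Members whose groups did not overlap numbered 0 with median centring (against 1.51% of all genes), 3 with quantile normalization (6.98%, against 2.78%) and 11 without GR_KO replicate 1 (25.6%, against 12.4%). Over the whole table, limma called 6 genes, but 0 with no filter on dim genes (857 at an unadjusted p under 0.05), 1 with probe sets averaged, 2 without the variance trend, 10 with array weights, 3 with the spike-in covariate, and 0 to 5 with 1 array left out (292 to 1196 at an unadjusted p under 0.05). With the replicate block it called 1 gene and 0 members, with 1 member (2.33%), Ndufs4, at an unadjusted p under 0.05, against 4.37% of all genes. Of 20 members named for their values, 12 kept their sign in the 20 settings that give 1 value a gene, Ndufs4 between -0.48 and -0.21. With every probe set on its own, probe sets of 3 of these 12 had the other sign, in Ndufs4 (0.12), Ndufa12 (-0.66) and Ndufb6 (-0.0086). Signs turned with probe sets averaged for Ndufa3 (-0.079), Ndufab1 (-0.038) and Ndufs7 (0.0050), with quantile normalization for Ndufab1 (-0.012) and Ndufb11 (-0.043), and with median centring for Ndufv2 (0.0043). They turned with array weights for Ndufab1 (-0.023), Ndufc2 (0.0089), Ndufs7 (0.098) and Ndufv2 (0.095), and with the spike-in covariate for Ndufv2 (0.00066). With 1 array left out, Ndufa4l2 ranged from -0.19 to 0.070, Ndufab1 from -0.090 to 0.13, Ndufb11 from -0.072 to 0.15, Ndufb9 from -0.041 to 0.15, Ndufs7 from -0.17 to 0.090 and Ndufv2 from -0.11 to 0.072. The cause was not tested. A median standard error of 0.17 limits what 4 arrays a group can resolve.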
